A study of Mus musculus with 10 samples.

Results

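The kappa light chain (Igk) repertoires of Igll1-/- B-1a cells and wild-type (WT) B-2 cells of the peritoneal cavity were compared in 4 libraries, 2 of each group, out of 10 libraries in the series. Members were taken by locus, genotype and cell type: every Igk library labelled as Igll1 knockout B-1a or as wild-type B-2. The mice were C57BL/6 and 6 to 8 weeks old, and no group received a treatment. The cells were sorted by surface markers, B-1a cells as low in B220 and positive for CD5 and B-2 cells as positive for B220. The knockout mice lack Igll1, and the wild-type mice carry it. The comparison changes genotype and cell type at once, and their contributions cannot be told apart from these 4 libraries. A further 2 Igk libraries, of WT B-1a cells, served to estimate the spread and as a point of reference. Rearrangements were amplified from genomic DNA, so a signal reports templates and their amplification, not RNA. Neither the Igll1 deletion nor the sorting markers are read by this assay, and the labels could not be checked against them.

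A kappa chain is made by joining a V gene to a J gene (J1, J2, J4 or J5 can function in the mouse). The join forms the third complementarity-determining region, CDR3, the part of the light chain that differs most between cells. Igll1 encodes lambda 5, which together with VpreB forms the surrogate light chain. This chain pairs with a new heavy chain in the pre-B cell receptor and lets precursors expand before kappa joining. B-1a cells are self-renewing cells of the body cavities known for antibodies to phosphatidylcholine and phosphorylcholine, while B-2 cells are the follicular type renewed from bone marrow. Well-known B-1a light chains use IGKV4-91 or IGKV14-126 (phosphatidylcholine) and IGKV7-33 (phosphorylcholine).

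In Igll1-/- B-1a cells, 214000 and 274339 reads fell on 5701 and 6940 clonotypes. In WT B-2 cells, 288396 and 288355 reads fell on 8652 and 8613 clonotypes. A clonotype is 1 row of the tables, with its V gene and allele, J gene and allele and CDR3 amino acids. Over all 6 Igk libraries, 57.7% to 59.2% of clonotypes had a single read, and 5.56% to 6.55% were assigned to several V genes and were left out of V gene counts. The libraries of a group differed by more than sampling noise in V gene counts (chi-square 779 on 101 degrees of freedom for Igll1-/- B-1a, 163 on 102 for WT B-2). This comparison takes every clonotype as a separate draw. Many were near-identical to a larger one: merging them, as described below, left 2639 of 6940 in Igll1-/- B-1a replicate 2. Such variants can raise the statistic, so it cannot tell separate samples from repeat amplifications of 1 sample. The libraries of each group were kept as 2 replicates because they are labelled so. A mean ± SD below is over these 2 libraries. Whether the replicates came from separate mice is not stated in the labels, so p-values measure the spread between libraries.

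The CDR3s that held most reads show what the groups shared and where they parted. The following are those named in the text, written in one-letter amino acids, with the V and J gene before the colon.
IGKV3-7 with IGKJ1, largest in Igll1-/- B-1a replicate 2: QHSWEIPWT
IGKV3-7 with IGKJ1, the third largest in Igll1-/- B-1a replicate 1: QHSWEIPRT
IGKV15-103 with IGKJ5, largest in Igll1-/- B-1a replicate 1: QQGQSYPLT
IGKV1-110 with IGKJ1, the third largest in Igll1-/- B-1a replicate 2: SQSTHVPWT
IGKV4-53 with IGKJ5, second largest in Igll1-/- B-1a replicate 2: QQWSSYPLT
IGKV8-24 with IGKJ5, the largest in both WT B-2 libraries: QQHYSTPLT
IGKV14-126 with IGKJ2, the phosphatidylcholine type of B-1a cells: LQHGESPYT
IGKV4-91 with IGKJ5: QQGSSIPLT
IGKV7-33 with IGKJ5: AQFYSYPLT
All but a few positions of each are read from the V gene, and the last residues come from the join and the J gene. QHSWEIPWT and QHSWEIPRT differ in 1 residue, next to the last.

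In Igll1-/- B-1a cells, 6 V genes took a larger share of clonotypes than in WT B-2 cells and 13 took a smaller share, of 84 tested (edgeR quasi-likelihood test, Benjamini-Hochberg adjusted p under 0.05). Over all tested V genes, 22.6% passed, 7.14% higher and 15.5% lower. The share of a V gene did not overlap between the groups in 69% of tested V genes. IGKV3-7 differed most among those higher. It made up 3.84% and 5.55% of clonotypes in Igll1-/- B-1a cells and 1.21% and 0.98% in WT B-2 cells. The 95% Wilson intervals, which take every clonotype as a separate draw, did not overlap. They were 3.37% to 4.37% in the lower Igll1-/- B-1a library and 1.004% to 1.47% in the higher WT B-2 library. Near-identical variants can make them too narrow. Merging such variants left 65 of 219 and 129 of 385 IGKV3-7 clonotypes in Igll1-/- B-1a cells. In WT B-2 cells it left 39 of 105 and 32 of 84. The log2 fold change was 2.10 (SE 0.27, adjusted p = 0.000472).

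IGKV15-103, which the tables list as an open reading frame without assigned function, made up 6.03% and 4.57% of clonotypes in Igll1-/- B-1a cells against 2.13% and 1.85% in WT B-2 cells (log2 fold change 1.41, SE 0.20, adjusted p = 0.000472). The WT B-1a libraries had 1.87% and 1.97% for this gene, close to WT B-2. IGKV1-110 made up 7.33% and 7.56% against 4.22% and 4.28% (log2 fold change 0.81, SE 0.11, adjusted p = 0.000472). In both Igll1-/- B-1a libraries IGKV1-110 was the most used of the 6 genes.

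IGKV8-30 made up 7.12% and 5.99% of clonotypes against 3.44% and 3.07% (log2 fold change 1.01, SE 0.17, adjusted p = 0.00164). In Igll1-/- B-1a replicate 1, 207 of its 406 clonotypes were unproductive, and 182 of these were variants with 27 residues in the CDR3, holding 3154 reads. The other 3 libraries had 1, 2 and 7 such clonotypes. With productive clonotypes only, the log2 fold change of IGKV8-30 was 0.65 (adjusted p = 0.0263). IGKV4-53 made up 2.54% and 3.18% against 1.34% and 1.58% (log2 fold change 0.97, SE 0.25, adjusted p = 0.0182), a call lost without either WT B-2 library and with the 4 libraries alone.

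Of the V genes chosen here as phosphatidylcholine and phosphorylcholine types, IGKV4-91 was higher in Igll1-/- B-1a than in WT B-2 cells, and IGKV14-126 and IGKV7-33 were lower. IGKV4-91 made up 2.77% and 3.17% of clonotypes in Igll1-/- B-1a cells and 1.44% and 1.30% in WT B-2 cells (log2 fold change 1.11, SE 0.17, adjusted p = 0.000657). By reads it held 2.01% and 3.65% against 1.46% and 1.32%, and the test on reads did not pass (adjusted p = 0.0833), nor did the test on clonotypes with at least 10 reads (adjusted p = 0.0999). WT B-1a cells had 6.54% and 6.03% of clonotypes on this gene, above both groups. Differences from WT B-1a cells were not tested.

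IGKV14-126 made up 0.68% and 0.73% of clonotypes in Igll1-/- B-1a cells and 1.65% and 1.47% in WT B-2 cells, and 4.89% and 5.29% in WT B-1a cells. Against WT B-2 it fell by 1.14 on the log2 scale (SE 0.22, adjusted p = 0.00304). This call was lost without WT B-2 replicate 1 (adjusted p = 0.0688), with TMM factors (0.0630), with the 4 libraries alone (0.0646), with DESeq2 (0.198) and with at least 10 reads per clonotype (0.230), at log2 fold changes of -1.14 to -0.61. IGKV7-33 made up 0.28% and 0.10% against 0.62% and 0.55%, and fell by 1.64 (SE 0.51, adjusted p = 0.0415). WT B-1a cells had 1.05% and 1.12% on this gene. The IGKV7-33 call was lost in 7 of 15 alternatives, among them TMM factors and leaving out Igll1-/- B-1a replicate 2 or either WT B-2 library, with adjusted p up to 0.329. IGKV2-137, used by other phosphorylcholine antibodies, had 0.54% and 0.48% against 0.54% and 0.65% and overlapped between the groups (log2 fold change -0.23, adjusted p = 0.700, with the sign turned under TMM factors at 0.23). So among these 4 genes, 1 was higher, 2 were lower and 1 did not pass, where 22.6% of all 84 tested V genes passed. None of these calls, the higher one included, held in every alternative. These 4 need not be all the V genes of these types.

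Among the remaining V genes with a lower share, IGKV3-9 differed most. It had 6 and 4 clonotypes in Igll1-/- B-1a cells, 0.11% and 0.06%, against 101 and 78 in WT B-2 cells, 1.17% and 0.91% (log2 fold change -3.67, SE 0.63, adjusted p = 0.00164). In WT B-2 cells 95.05% and 94.9% of these clonotypes were unproductive. IGKV8-28 had 0.65% and 0.40% against 1.42% and 1.56% (log2 fold change -1.51, SE 0.37, adjusted p = 0.0159). IGKV9-128, listed as a pseudogene, had 0.68% and 0.88% against 1.53% and 1.67% (log2 fold change -1.03, SE 0.25, adjusted p = 0.0159). The largest IGKV9-128 clonotype held 1348 and 1251 reads in WT B-2 cells. IGKV12-44, IGKV4-73, IGKV4-52, IGKV4-69, IGKV6-25, IGKV3-4, IGKV1-122 and IGKV4-81 completed the group, with log2 fold changes of -2.14 to -1.11. Without either WT B-2 library, none of these 8 calls held, nor those of IGKV8-28 and IGKV9-128. All 10 were also lost with TMM factors.

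**Figure D1:**
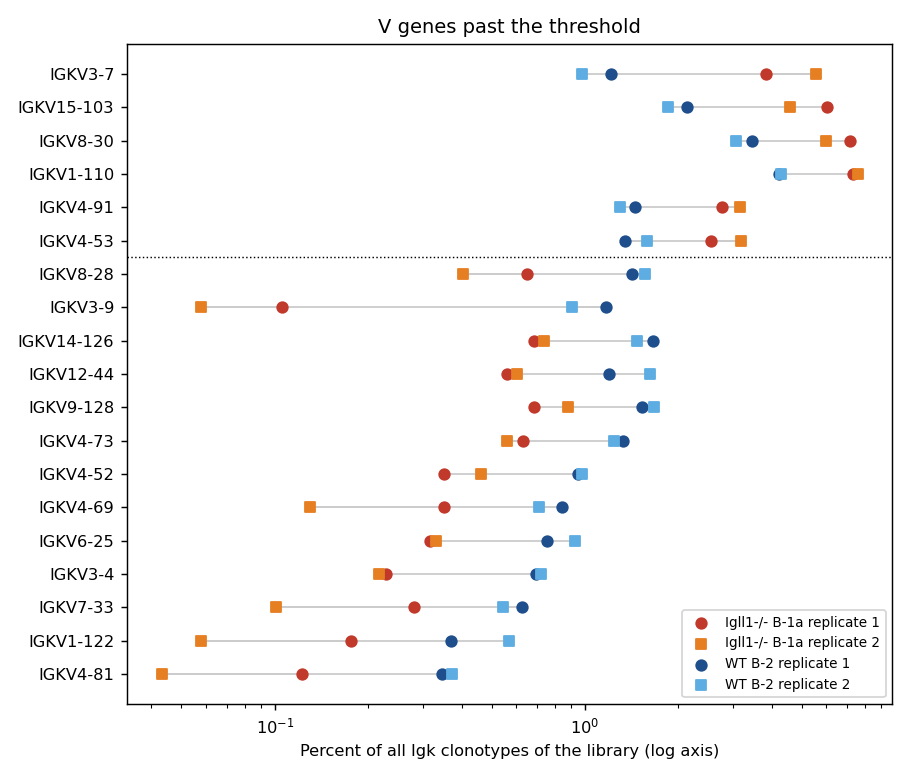
Share of all Igk clonotypes (percent, log axis) held by each of the 19 V genes past the threshold, 1 point per library. Above the dotted line are the 6 genes with a higher share in Igll1-/- B-1a cells, below it the 13 with a lower share, and in none of them do the points of the groups overlap.

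The balance between higher and lower genes depended on the scaling. The shares above are of all clonotypes of a library, and on that scale the median tested V gene had a log2 fold change of -0.49. With TMM factors, which centre the bulk of genes, the median was -0.03, and 6 V genes were higher and 1 was lower. With DESeq2 size factors the median was 0.05, and 8 were higher and 0 lower, with 46 genes given no adjusted p. The 6 higher genes listed above passed under TMM factors too, and all 19 genes kept their direction under both scalings, so a change relative to the median gene is smaller for the lower genes by about that shift. The count also rested on single libraries: 39 V genes passed without Igll1-/- B-1a replicate 2, 6 without WT B-2 replicate 1 and 7 without WT B-2 replicate 2.

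At the level of V families, IGKV15 was higher in Igll1-/- B-1a cells, and IGKV6, IGKV12, IGKV13 and IGKV7 were lower, of 17 families tested (29.4% passed, 5.88% higher and 23.5% lower). IGKV15 holds IGKV15-103 as its one gene here, so its share is the one given above. IGKV6 made up 4.91% and 6.31% of clonotypes against 8.74% and 8.48% (log2 fold change -0.61, SE 0.19, adjusted p = 0.00596). IGKV12 made up 3.74% and 4.67% against 6.24% and 7.20% (log2 fold change -0.67, SE 0.20, adjusted p = 0.00596). Both are middle-sized families, and the groups did not overlap in either.

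IGKV13 was rare at 0.47% and 0.32% against 0.84% and 0.89% (log2 fold change -1.15, SE 0.34, adjusted p = 0.00596), and IGKV7 consists of IGKV7-33. The most used family, IGKV4, made up 30.9% and 26.8% in Igll1-/- B-1a cells and 28.2% and 28.5% in WT B-2 cells, overlapping between the groups (log2 fold change 0.02, SE 0.10, adjusted p = 0.870). Within IGKV4, IGKV4-91 and IGKV4-53 were higher while IGKV4-52, IGKV4-69, IGKV4-73 and IGKV4-81 were lower. IGKV3 shows a like mixture, with IGKV3-7 higher and IGKV3-9 and IGKV3-4 lower, at 7.24% and 9.80% for the family against 7.63% and 6.68% (log2 fold change 0.26, adjusted p = 0.299). IGKV1, at 14.1% and 14.7% against 11.7% and 11.9%, did not overlap but did not pass (log2 fold change 0.29, SE 0.15, adjusted p = 0.118). The families IGKV8 (13.5% and 11.8% against 11.4% and 11.3%) and IGKV5 (5.19% and 4.81% against 4.69% and 4.73%) did not pass, with adjusted p of 0.452 and 0.786. The same holds for IGKV14 (3.67% and 6.12% against 5.77% and 5.86%) and IGKV10 (4.96% and 4.14% against 4.40% and 4.66%), which overlapped between the groups. IGKV9 was at 1.49% and 2.93% against 3.32% and 3.23%, and IGKV11 at 0.67% and 0.62% against 1.03% and 1.11%, both apart between the groups and with an adjusted p of 0.0640. IGKV16 (1.39% and 0.85% against 1.53% and 1.39%) and IGKV2 (1.26% and 1.08% against 1.34% and 1.30%) did not pass either.

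Without WT B-2 replicate 1 or replicate 2, 1 family passed, IGKV15 both times, and 9 passed without Igll1-/- B-1a replicate 1.

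**Figure D2:**
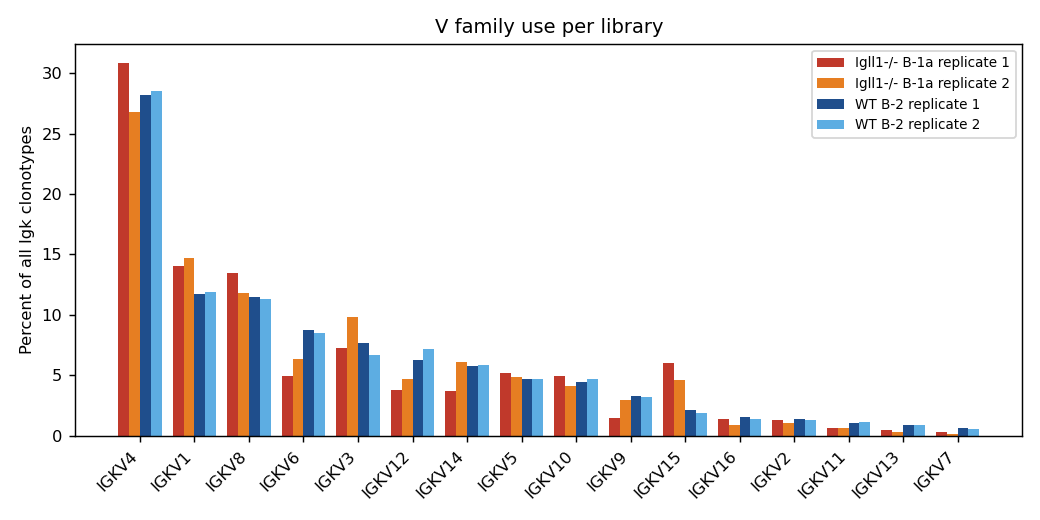
Share of all Igk clonotypes (percent) per V family and library, for families at 1% or more in either group or past the threshold. The IGKV15 bars are higher in both Igll1-/- B-1a libraries, the IGKV6 and IGKV12 bars are lower, and those of IGKV4 overlap.

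The J gene joined to each V gene was examined next. Of 202 V-J combinations tested, 25 passed (12.4%), 9 higher in Igll1-/- B-1a cells (4.46%) and 16 lower (7.92%). The combination of IGKV3-7 with IGKJ1 differed most among the higher ones, at 2.05% and 3.66% of clonotypes against 0.39% and 0.33% (log2 fold change 2.99, SE 0.37, adjusted p = 0.00240). Within IGKV3-7, IGKJ1 was used by 53.4% and 66.0% of clonotypes in Igll1-/- B-1a cells and by 32.4% and 33.3% in WT B-2 cells. The difference in J use within the gene was not tested. IGKV3-7 with IGKJ2 passed as well (0.63% and 1.27% against 0.36% and 0.28%, adjusted p = 0.0378).

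IGKV1-110 with IGKJ1 made up 2.70% and 3.72% against 1.25% and 1.38% (log2 fold change 1.29, SE 0.25, adjusted p = 0.0118). IGKV15-103 with IGKJ5 made up 3.07% and 2.38% against 0.95% and 0.72% (log2 fold change 1.70, SE 0.28, adjusted p = 0.0118), and with IGKJ1 1.61% and 1.37% against 0.64% and 0.66% (adjusted p = 0.0253). IGKJ1 and IGKJ5 are the first and last genes of the J cluster. IGKV8-30 with IGKJ5 made up 5.40% and 3.34% against 1.79% and 1.45% (log2 fold change 1.43, SE 0.30, adjusted p = 0.0171). With productive clonotypes only it no longer passed, at a log2 fold change of 0.87. IGKV4-53 with IGKJ5 was higher too, at 1.60% and 1.96% against 0.72% and 0.86% (adjusted p = 0.0208).

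The lower combinations were of V genes that were called lower themselves, apart from those of IGKV12-38, IGKV3-2, IGKV4-78 and IGKV6-20. Those genes also had lower shares, at log2 fold changes of -1.32 to -0.83, but did not pass. IGKV14-126 with IGKJ2, the combination of the phosphatidylcholine light chain, made up 0.18% and 0.16% in Igll1-/- B-1a cells against 0.65% and 0.50% in WT B-2 cells (log2 fold change -1.77, SE 0.32, adjusted p = 0.0118). IGKV8-28 with IGKJ5 made up 0.28% and 0.32% against 0.913% and 0.998% (log2 fold change -1.67, SE 0.32, adjusted p = 0.0118). IGKV3-9 was lower with both IGKJ5 and IGKJ2 (log2 fold changes of -3.82 and -3.77). IGKV12-44 with IGKJ1 and IGKV4-73 with IGKJ2 followed, the last with 0 clonotypes in Igll1-/- B-1a replicate 1. These calls rested on few libraries. No combination passed with the 4 libraries alone or without WT B-2 replicate 2 (smallest adjusted p of 0.0531 and 0.0560, with 61 and 21 at an unadjusted p under 0.05 in edgeR), 1 passed without WT B-2 replicate 1, and 46 and 47 passed without Igll1-/- B-1a replicate 1 and 2.

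**Figure D3:**
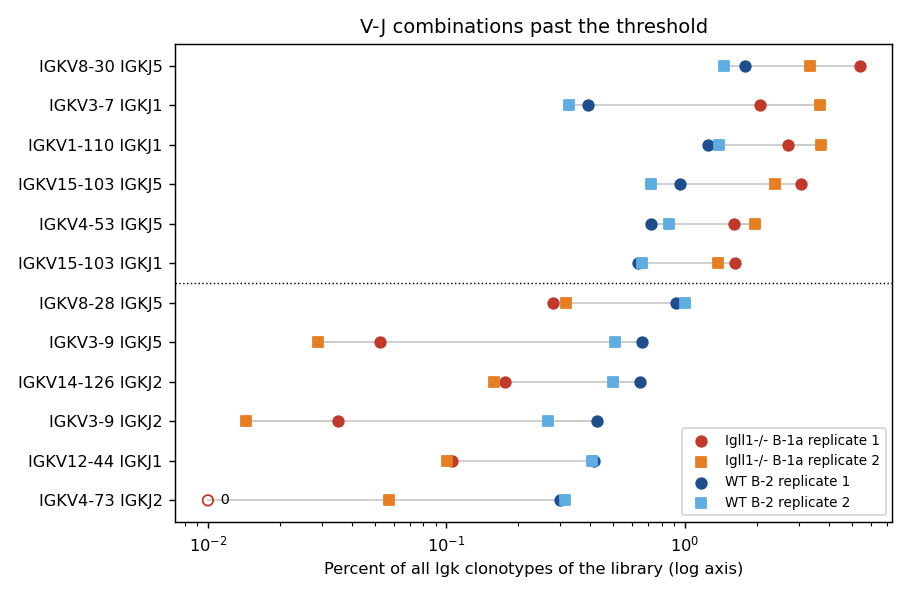
Share of all Igk clonotypes (percent, log axis) for the 6 higher and 6 lower V-J combinations past the threshold with the largest differences, 1 point per library. The open circle marks 0 clonotypes, and IGKV3-7 with IGKJ1 is at 2.05% and 3.66% in Igll1-/- B-1a cells against 0.39% and 0.33% in WT B-2 cells.

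Over all V genes, J use was compared next, as a share of clonotypes. IGKJ2 made up 20.2% and 21.2% of clonotypes in Igll1-/- B-1a cells and 25.6% and 25.2% in WT B-2 cells (20.7% ± 0.69 against 25.4% ± 0.28). IGKJ1 made up 24.9% and 28.5% against 24.8% and 26.4%, and IGKJ5 51.7% and 47.8% against 47.3% and 46.1%. Of these 3, IGKJ1 overlapped between the groups. IGKJ4 was at 1.67% and 1.24% against 1.06% and 1.02%. With 2 libraries per group the exact two-sided permutation test cannot go below p = 0.33, which is its value for IGKJ2, IGKJ4 and IGKJ5, so no value compared by that test below could pass a threshold.

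V genes at the J-distal end of the locus (numbers above 93) made up 36.6% and 37.3% of clonotypes in Igll1-/- B-1a cells and 33.6% and 33.9% in WT B-2 cells (exact permutation p = 0.33). J-proximal V genes (numbers up to 45) made up 29.3% and 33.4% against 35.0% and 33.5%. Over all clonotypes the middle genes overlapped, at 34.1% and 29.2% against 31.3% and 32.6%. The order by number was checked against the mouse RefSeq annotation (assembly GRCm38.p6), which held 100 of the 103 V genes and in which 99 of 99 neighbouring V genes ran in descending number toward the J genes.

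The productive share was 86.8% and 87.1% of clonotypes in Igll1-/- B-1a cells and 88.6% and 88.2% in WT B-2 cells (86.9% ± 0.22 against 88.4% ± 0.23, exact permutation p = 0.33). By reads it was 97.2% and 98.6% against 97.9% and 97.4%, overlapping between the groups. Every listed row has its CDR3 in frame between the anchors, so out-of-frame joins are not counted here. A stop codon in the CDR3 accounted for 79.5% and 56.4% of unproductive clonotypes in Igll1-/- B-1a cells and for 54.3% and 53.8% in WT B-2 cells. The high value was that of replicate 1, the library with the 27-residue IGKV8-30 variants.

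CDR3s of 9 residues, the usual kappa length, were more frequent in both Igll1-/- B-1a libraries than in both WT B-2 libraries. They made up 77.2% and 79.4% of productive clonotypes against 72.8% and 72.1%, a difference of 5.87 percentage points (78.3% ± 1.59 against 72.4% ± 0.54, exact permutation p = 0.33). The lengths on either side were less frequent. CDR3s of 8 residues made up 10.5% and 8.56% against 11.4% and 12.3%, and those of 10 residues 8.05% and 6.44% against 10.5% and 9.24%. The mean length was 9.401 and 9.496 against 9.51 and 9.59 residues, and up to 20 residues it was 8.97 and 9.0 against 8.99 and 8.97, overlapping between the groups. By reads in place of clonotypes, the gap in 9-residue CDR3s was narrower, at 85.8% and 87.6% against 84.4% and 84.5%, a difference of 2.27 percentage points.

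Among clonotypes with at least 10 reads the gap in 9-residue CDR3s was wider than over all clonotypes, at 75.2% and 81.3% in Igll1-/- B-1a cells and 58.1% and 58.1% in WT B-2 cells (exact permutation p = 0.33). In WT B-1a cells it was 71.1% and 71.6%. In the WT B-2 libraries the CDR3s of 8 residues then made up 17.8% and 18.1% and those of 10 residues 17.0% and 15.4%. The difference was present within V families. Among clonotypes with at least 10 reads and up to 20 residues, IGKV4 had 75.7% and 80.6% at 9 residues against 53.9% and 54.7%, IGKV3 82.8% and 96.5% against 55.6% and 58.4%, and IGKV8 69.2% and 71.9% against 58.1% and 58.6%. With each V gene weighted equally, the shares over 61 V genes were 75.4% and 80.2% against 73.8% and 73.1%, and over the 15 V genes with enough clonotypes of at least 10 reads they were 71.2% and 78.8% against 53.6% and 53.8%. Thus the groups did not overlap when V gene use was held equal.

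**Figure D4:**
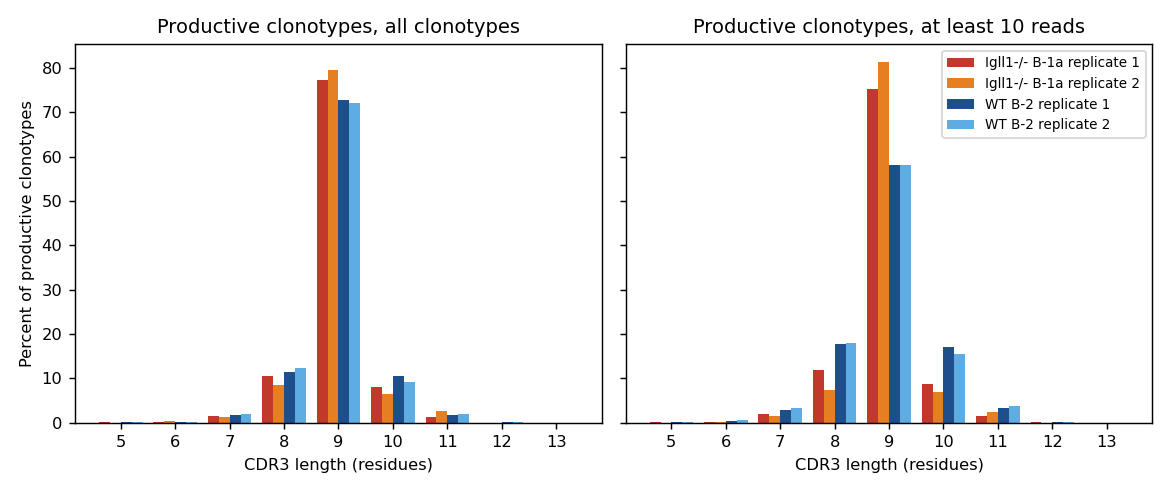
Percent of productive clonotypes at each CDR3 length (residues), 1 bar per library, for all clonotypes (left) and for clonotypes with at least 10 reads (right). The bars at 9 residues are higher in both Igll1-/- B-1a libraries, by the wider margin on the right, where WT B-2 cells have 58.1% and 58.1%.

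The 9-residue share was then taken by J gene. Over all productive clonotypes up to 20 residues, 73.9% and 81.2% of IGKJ1 clonotypes had 9 residues in Igll1-/- B-1a cells against 68.1% and 67.6% in WT B-2 cells, and 77.0% and 84.7% of IGKJ2 clonotypes against 71.1% and 72.0%. With IGKJ5 the values overlapped, at 80.2% and 77.9% against 78.3% and 77.4%, but with at least 10 reads they were 81.6% and 81.3% against 68.3% and 67.1% and did not overlap. In 9-residue CDR3s the next-to-last position is where the J gene begins to be read, and IGKJ1, IGKJ2, IGKJ4 and IGKJ5 encode W, Y, F and L there. Among clonotypes with at least 10 reads, 68.1% and 67.1% had the residue of their own J gene in Igll1-/- B-1a cells and 60.5% and 58.1% in WT B-2 cells (exact permutation p = 0.33). IGKJ5 had the residue more often than IGKJ1 and IGKJ2. Among all clonotypes with at least 10 reads, of any length and productive or not, IGKJ5 also made up more in Igll1-/- B-1a cells (48.7% and 43.4% against 35.1% and 35.8%). By J gene, the shares were 47.1% and 61.2% against 43.2% and 44.1% for IGKJ1 and 78.2% and 73.9% against 73.2% and 68.0% for IGKJ5. They overlapped for IGKJ2, at 67.5% and 60.5% against 60.7% and 58.3%, and were lower for IGKJ4, at 91.7% and 86.7% against 100% and 100%. The IGKJ4 shares rest on few clonotypes, since IGKJ4 made up 1.83% and 2.02% against 0.78% and 0.62% of all clonotypes with at least 10 reads. With no read limit, the shares with the residue of their own J gene were 65.8% and 62.9% against 63.7% and 62.3% and overlapped. For IGKJ2 they were then lower in Igll1-/- B-1a cells, at 61.4% and 59.2% against 64.2% and 65.0%.

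Proline, which no J gene encodes at that position, was found there in 10.4% and 9.66% of 9-residue CDR3s in Igll1-/- B-1a cells and in 13.3% and 12.6% in WT B-2 cells. With at least 10 reads the shares were 11.6% and 11.2% against 18.2% and 19.4%. With no read limit, isoleucine stood there in 1.73% and 2.27% against 0.88% and 1.10%. Tyrosine, the residue of IGKJ2, differed more, at 14.5% and 14.1% against 17.1% and 17.8%. Over whole CDR3s, tyrosine differed most (9.01% and 9.18% of residues against 9.85% and 9.66%). Methionine was also less frequent in both Igll1-/- B-1a libraries (0.38% and 0.37% against 0.66% and 0.66%), and isoleucine more frequent (1.20% and 1.46% against 0.73% and 0.68%). Other residues were apart between the groups too, among them alanine, glycine, histidine and arginine. CDR3s with a basic residue made up 27.4% and 28.0% against 30.6% and 31.6%, and those with an acidic residue 17.9% and 20.7% against 20.8% and 18.8%. The groups were apart in basic residues and overlapped in acidic ones. The exact permutation test gave p = 0.33 for each of these differences but that of acidic residues, which had p = 0.67.

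The reads of Igll1-/- B-1a cells were held by fewer clonotypes than those of WT B-2 cells. The 10 largest clonotypes held 32.9% and 33.0% of reads in Igll1-/- B-1a cells and 16.6% and 16.5% in WT B-2 cells. The 100 largest held 77.0% and 76.4% against 55.4% and 55.9%. The effective number of clonotypes, the exponential of the Shannon entropy of read shares, was 195.2 and 195.4 against 522.5 and 520.9, with 261.4 and 261.1 in WT B-1a cells. In each of these measures the libraries of a group lay close together and the groups far apart (exact permutation p = 0.33). At an equal depth of 214000 reads, 5596 and 5912 clonotypes were left in Igll1-/- B-1a cells and 7161 and 7126 in WT B-2 cells. The number of cells that went into each library is not given in the sources used here, and its part in these values was not tested.

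The clonotypes that dominated differed between the Igll1-/- B-1a replicates. QHSWEIPWT held 335 and 20562 reads in Igll1-/- B-1a replicate 1 and 2, and 316 and 292 in WT B-2 cells. It was the largest clonotype of replicate 2, with 7.495% of its reads (Wilson interval 7.40% to 7.59%). QHSWEIPRT held 7925 and 165 reads against 228 and 166. The same V-J combination was thus carried by 1 large clonotype in each replicate, but not by the same one.

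QQGQSYPLT was the largest clonotype of replicate 1, with 11494 and 5540 reads against 4243 and 3131. SQSTHVPWT held 4817 and 12088 reads against 1963 and 1859, and QQWSSYPLT with IGKV4-53 held 7146 and 13719 against 4293 and 4037. By reads and by share of reads, these 3 were higher in both Igll1-/- B-1a libraries than in both WT B-2 libraries, unlike QQYSGYPLT of IGKV4-57-1, with 9294 and 44 reads against 1642 and 1767. In WT B-2 cells QQHYSTPLT of IGKV8-24 was the largest in both libraries, with 7382 and 7696 reads against 6026 and 2123 in Igll1-/- B-1a cells. As a share of reads it overlapped between the groups, at 2.56% and 2.67% against 2.82% and 0.77%. The next largest there were QQYYSYPLT of IGKV8-30 with IGKJ5 (5031 and 5073 reads against 5949 and 11787), QQRSSYPLT of IGKV4-57 with IGKJ5 (4651 and 5642 against 4908 and 954) and FQGSHVPLT of IGKV1-117 with IGKJ5 (5794 and 4669 against 2181 and 2160). By share of reads, FQGSHVPLT was lower and QQYYSYPLT higher in both Igll1-/- B-1a libraries than in both WT B-2 libraries, and QQRSSYPLT overlapped.

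Among the B-1a types, LQHGESPYT held 123 and 138 reads in Igll1-/- B-1a cells, 1025 and 914 in WT B-2 cells and 18300 and 17325 in WT B-1a cells. AQFYSYPLT held 17 and 133 reads against 1145 and 1398, and 3390 and 4240 in WT B-1a cells. QQGSSIPLT held 1374 and 6847 reads against 2445 and 1873, overlapping between the groups, and 19597 and 16055 in WT B-1a cells. The order of WT B-2 above Igll1-/- B-1a cells therefore held for the first 2 of these clonotypes.

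No clonotype passed the test on reads. Of 1414 tested, 0 (0%) had an adjusted p under 0.05 in edgeR, with a smallest adjusted p of 0.120 and 386 at an unadjusted p under 0.05. DESeq2 called 182, of which 39 were higher in Igll1-/- B-1a cells and 143 lower, and gave 357 no adjusted p. Without Igll1-/- B-1a replicate 1, 4 passed in edgeR.

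Presence and absence of clonotypes were compared next. After rows that differ in the allele alone were joined, 19839 clonotypes occurred in the 4 libraries. Of these, 1287 were found in all 4, and they held 86.6% and 87.2% of reads in Igll1-/- B-1a cells and 79.1% and 79.8% in WT B-2 cells. Of 2007 shared by both Igll1-/- B-1a libraries, 305 were in neither WT B-2 library, and they held 1.72% and 0.53% of reads. Of 3436 shared by both WT B-2 libraries, 1170 were in neither Igll1-/- B-1a library, and they held 5.33% and 5.20% of reads. The WT B-2 libraries hold more clonotypes, so these counts are not on an equal footing.

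With at least 10 reads in both libraries of a group and 0 in the other group, there were 2 in Igll1-/- B-1a cells, or 0.514% of the 389 with at least 10 reads in both, and 178 in WT B-2 cells, or 19.5% of 911. Of the 178, 71.3% were found in WT B-1a cells, less than the 91.8% of all 911. The 2 were MQHLEYPT of IGKV2-137 with IGKJ5 (334 and 22 reads) and VQYAQFRT of IGKV14-100 with IGKJ1 (90 and 20 reads), and neither was found in WT B-1a cells. Against a floor of 3 reads per WT B-2 library, their shares of reads were at least 78.9-fold and 23.7-fold higher. Without Igll1-/- B-1a replicate 1 these limits were 7.71-fold and 7.01-fold. On the other side, QQYWSTPWT of IGKV13-84 or IGKV13-85 with IGKJ1 held 496 and 430 reads in WT B-2 cells. It held 0 in Igll1-/- B-1a cells, at least 129-fold lower, but also 226 and 0 reads in the WT B-1a replicates. QQYWSTPLT of the same V genes with IGKJ5 held 92 and 142 reads in Igll1-/- B-1a cells against 2170 and 2443. In WT B-1a cells QQYWSTPLT held 308 and 348 reads. QQYWSTLT of these V genes with IGKJ5 held 415 and 403 reads in WT B-2 cells and 0 in Igll1-/- B-1a cells. In WT B-1a cells QQYWSTLT was found in both replicates, with 170 and 140 reads. The Igll1-/- B-1a libraries were the shallower ones, and the role of depth in the 178 was not tested.

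The Igll1-/- B-1a replicates were less alike than the WT B-2 replicates. They shared 46.2% of their 1000 largest clonotypes, against 39.6% to 43.3% for the 4 pairs between groups and 68.1% for the WT B-2 replicates. The Morisita-Horn index, which compares read shares and is 1 for identical repertoires, was 0.48 between the Igll1-/- B-1a replicates, 0.56 and 0.58 between replicate 1 and WT B-2 cells, 0.43 and 0.44 between replicate 2 and WT B-2 cells, and 0.93 between the WT B-2 replicates. On that index the Igll1-/- B-1a pair lay inside the range of the pairs between groups, and on the largest clonotypes just above it. After near-identical clonotypes were merged, the pair shared 38.7% of the largest, inside the 38.6% to 41.7% between groups. By clonotype count, the Igll1-/- B-1a replicates shared 2007, or 35.9% of replicate 1 and 29.4% of replicate 2. With the WT B-2 libraries, replicate 1 shared 39.2% and 39.7% of its clonotypes and replicate 2 shared 36.4% and 36.2%, more than with each other in both cases, while the WT B-2 libraries hold more clonotypes. The WT B-2 replicates shared 3436, or 40.3% and 40.6%. No test was run on these pairs, since pairs that share a library are not independent.

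**Figure D5:**
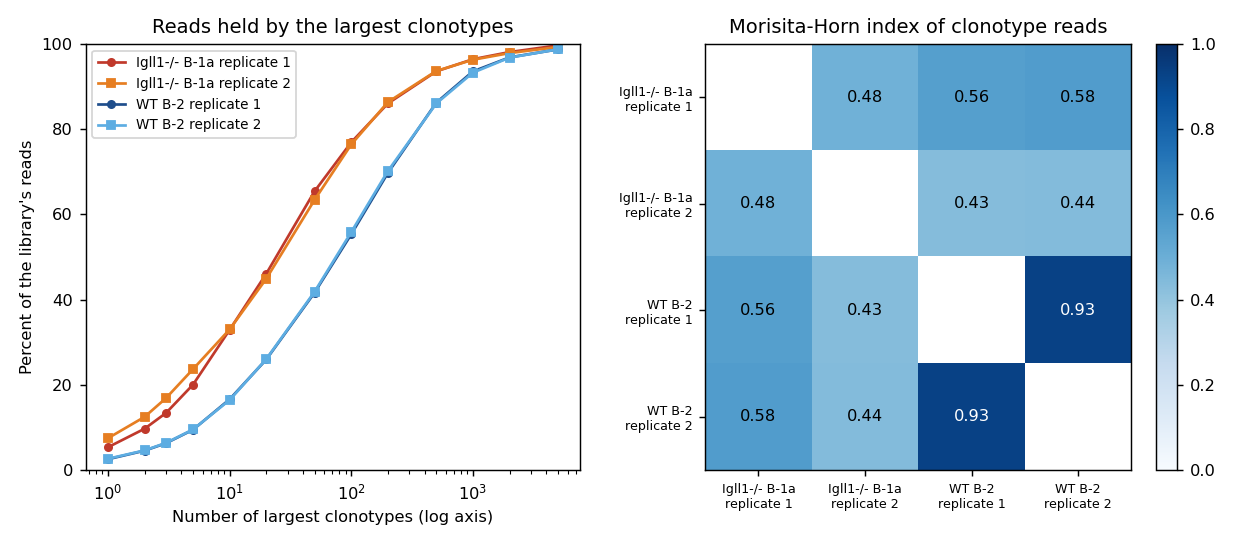
Left, percent of a library's reads held by its largest clonotypes, against their number (log axis), where the 10 largest hold 32.9% and 33.0% in Igll1-/- B-1a cells and 16.6% and 16.5% in WT B-2 cells. Right, Morisita-Horn index of clonotype reads for each pair of the 4 libraries, at 0.48 between the Igll1-/- B-1a replicates and 0.93 between the WT B-2 replicates.

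The V assignment limits statements on single clonotypes, since the amplified stretch covers little of the V gene. QQWSSNPLT with IGKJ5 was assigned to IGKV4-68 in WT B-2 replicate 1 (4483 reads) and to IGKV4-59 or IGKV4-68 in WT B-2 replicate 2 (4422 reads) and in Igll1-/- B-1a cells (2797 and 3665 reads). It therefore counts as a different clonotype in WT B-2 replicate 1, and the overlaps with that library are lower for it. QNDYSYPPT of IGKV8-19 or IGKV8-28 with IGKJ5 held 687 and 309 reads in WT B-2 cells and 0 in Igll1-/- B-1a cells. In the WT B-1a replicates it held 717 and 0 reads. Whether a different V assignment produced the 0 counts of QNDYSYPPT or QQYWSTPWT was not tested.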

How the data were processed

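Per the labels and the methods, genomic DNA of sorted cells was amplified by PCR with a degenerate V primer and added primers, products of 100 to 280 bp were kept, and Illumina reads were assigned with IMGT/High-V-QUEST, whose versions are not given in the sources used here. The authors deposited 1 table per library with the read count of each clonotype. No molecular identifiers are described, so counts mix cells with amplification, V shares depend on primers, and intervals and floors cover counting error only. The members, gene lists and tests were chosen with earlier results of these data known.

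Clonotypes (or reads) per V gene, family or V-J combination, and reads per clonotype, were tested with edgeR 4.0.16 (quasi-likelihood, R 4.3.3) over the 6 Igk libraries, with totals as library sizes and at least 10 counts in at least 2 libraries. Features past an adjusted p of 0.05 are called. The named V genes are all that were called and 4 known B-1a genes; named V-J combinations are the 6 with the largest difference each way; named V families are those at 1% or more in either group; named clonotypes are the 3 largest per library, and all others were chosen after their values were seen. DESeq2 1.42.0 and other settings were alternatives; in one, a clonotype was merged into another of the same V and J genes that differed in 1 residue and had at least 10 times its reads, which left 38.0% to 40.8% of clonotypes. Shares, lengths and diversity were compared per library with the exact two-sided permutation test. CDR3 length is the number of residues listed. The J-residue share and the equal weighting of V genes were added after seeing the data. The test scripts were tested on simulated data. Heavy chain tables were not used here. Depth was 214000 to 288396 reads per compared library, of which 3 reads are 0.00104% to 0.00140%, and 3 clonotypes are 0.0347% to 0.0526% of a library's clonotypes.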

Additional observations from a re-analysis of the deposited data

How the results depend on the processing

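Counts of calls moved most. For V genes, 19 passed as reported, against 7 with the 4 libraries alone, 8 with DESeq2, 7 with TMM factors, 10 with at least 10 reads per clonotype, and 6 to 39 when 1 library was left out. For V families, 5 passed, against 1 with DESeq2, 3 with TMM factors, 3 with at least 10 reads, 8 with at least 2 reads, 9 with productive clonotypes, 8 with reads, and 1 to 9 when 1 library was left out. For V-J combinations, 25 passed, against 0 with the 4 libraries alone, 15 with DESeq2, 8 with at least 10 reads, 2 after near-identical clonotypes were merged, 8 with no filter, and 0 to 47 when 1 library was left out. For clonotype reads, 0 passed, against 182 with DESeq2 and 0 to 4 when 1 library was left out. Deviations from the group mean correlated at -0.195 over 84 V genes between libraries of the same replicate number. With 2 libraries per group the deviations mirror each other, so the value is 0.195 for different numbers. This correlation therefore cannot show whether the libraries are paired. With the replicate number as a block, 18 V genes, 5 families, 13 V-J combinations and 0 clonotypes passed. With the numbers crossed, an alternative added after seeing the data, 12 V genes, 5 families, 32 V-J combinations and 0 clonotypes passed.

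IGKV3-7 and IGKV15-103 passed under all 16 alternatives run, and IGKV3-9 under all 13 in which it was tested. IGKV1-110 and IGKV8-30 passed under 15 of 16, IGKV4-91 under 14 and IGKV4-53 under 13. The other lower genes held less often: IGKV14-126 and IGKV8-28 passed under 11 of 16, IGKV12-44 under 8 and IGKV4-73 under 7 of 16, IGKV3-4 and IGKV1-122 under 9, IGKV7-33, IGKV9-128 and IGKV4-69 under 8 and IGKV4-52 under 5 of 15, and IGKV4-81 under 9 and IGKV6-25 under 7 of 14. Single results changed sign as differences of Igll1-/- B-1a minus WT B-2. IGKV2-137 was at 0.23 (log2) with TMM factors. The family IGKV10 was at -0.0055 (at least 10 reads), -0.0017 (at least 2 reads) and, leaving out 1 library, -0.13 to 0.13. IGKV14 was at 0.11 after merging and, leaving out 1 library, -0.67 to 0.075, the last without Igll1-/- B-1a replicate 1. IGKV4 was at -0.026 (at least 10 reads) and, leaving out 1 library, -0.082 to 0.12, the first without Igll1-/- B-1a replicate 1. IGKV5 was at -0.0020 (at least 10 reads), -0.058 (at least 2 reads) and -0.34 by reads. IGKV8 was at -0.047 after merging, -0.013 with productive clonotypes and -0.0070 by reads. In percentage points, IGKJ1 was at -1.44 with at least 2 reads, -4.34 with at least 10 reads, -2.23 after merging and -0.74 to 2.89 when 1 library was left out, and IGKJ5 at -1.70 by reads. With unproductive clonotypes alone, J-proximal V genes were at 2.32 and J-distal ones at -1.99. The middle V genes were at 0.15 by reads, 0.70 with at least 2 reads, 0.81 after merging and -2.71 to 2.17 when 1 library was left out. The productive share was at 0.23 by reads, and CDR3s with an acidic residue at 0.80 by reads and -1.92 to 0.96 when 1 library was left out. The mean CDR3 length differed by 0.010 residues with at least 10 reads and by 0.0050 up to 20 residues. None of these passed in the values as reported, and the cause was not tested. IGKJ2, the 9-residue share, basic residues and clone sizes kept their direction under every alternative run. A fit left with 1 library in a group assumes that it varies like the others.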
